A study of Mus musculus with 8 samples.

Results

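The 8 genes described here belong to the cystatin family, which encodes inhibitors of cysteine proteases and proteins related to them. They are Cstl1, Cst8, Cst9, Cst11, Cst13, Cst3, Cst6 and Cstb, found by symbol among the 19906 genes for which counts were deposited, and all 8 were present. The family was chosen from these same measurements, because Cstl1 and Cst8 were higher in the libraries labelled Tmem232-/-, so the differences of members between genotypes are given below as a description, with standard errors and without p-values, and the calls, tools and intervals named for members are no independent evidence of a change.

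RNA was extracted from whole testes of 4 mice labelled Tmem232-/- and 4 mice labelled Tmem232+/+, all at 2 months of age, and 1 library per mouse was sequenced. The Tmem232-/- allele was made by CRISPR-Cas9 in oocytes of C57BL/6 mice and is a deletion between 2 introns of Tmem232 that shifts its reading frame in every cell of the animal, and the Tmem232+/+ mice carried no edit. Tmem232 encodes a transmembrane protein of the testis, and the comparison asks which testis transcripts differ when it is lost. Values are counts per 1000000 counts after TMM normalization (CPM), or, where levels of different genes are compared, the FPKM values deposited by the authors, which are per kilobase of transcript.

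Secreted cystatins have a signal peptide and a cystatin fold that blocks papain-like cathepsins, whereas stefins such as cystatin B remain inside the cell. Conserved stretches of the fold enter the active site of the protease, and the central one is a loop with glutamine, valine and glycine at fixed places. In mammals a group of reproductive cystatins, encoded beside cystatin C, is made mainly in the testis and epididymis and often lacks this loop. The best known of them is the Cst8 product, called CRES, which is made by spermatids and in the epididymis and is carried in the acrosome of sperm.

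The central loop separated the members by sequence. In the GRCm38 transcripts of the GENCODE annotation, the codons for glutamine, any residue, valine, any residue and glycine were present in 3 members, Cst3, Cst6 and Cstb, and absent from the other 5. The coding sequence around this place is shown for all 8, 5′ to 3′ on the coding strand, because the motif is the best known difference within the family. The 5 without it include Cstl1, Cst8 and Cst13, and also Cst9, which was not called between genotypes, and Cst11, which had too few counts to be tested. The 3 other cystatin genes of the same cluster were not searched for it. Capitals mark the 15 bases of the motif, or, where it is absent, the 15 bases aligned with those of Cst3.
Cst3: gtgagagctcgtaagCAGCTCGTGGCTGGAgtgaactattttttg
Cst6: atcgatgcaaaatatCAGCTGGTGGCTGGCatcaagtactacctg
Cstb: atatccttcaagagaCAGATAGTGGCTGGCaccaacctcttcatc
Cstl1: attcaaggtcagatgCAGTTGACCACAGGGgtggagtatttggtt
Cst8: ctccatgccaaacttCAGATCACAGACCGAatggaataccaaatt
Cst13: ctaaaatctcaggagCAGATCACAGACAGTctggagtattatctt
Cst11: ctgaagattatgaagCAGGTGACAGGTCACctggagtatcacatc
Cst9: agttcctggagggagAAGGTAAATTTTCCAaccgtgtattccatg

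The window lies on chromosome 2 in 6 members, at chr2:148872904-148875170 for Cst3, chr2:148751137-148754633 for Cstl1, chr2:148800198-148804609 for Cst8, chr2:148823297-148828166 for Cst13, chr2:148770461-148771193 for Cst11 and chr2:148835415-148836700 for Cst9. It lies at chr19:5348496-5349112 for Cst6 and chr10:78426981-78427025 for Cstb. All 8 genes are coded in 3 exons, and these positions include an intron in 7 of the 8 windows, that of Cstb lying within 1 coding exon. Of the 3 fixed residues, the aligned place in Cstl1 encodes 2, that in Cst8, Cst13 and Cst11 encodes 1, and that in Cst9 encodes 0. The translated coding sequences had 140 residues for Cstl1, 142 for Cst8, 141 for Cst13, 137 for Cst9, 139 for Cst11, 140 for Cst3, 149 for Cst6 and 98 for Cstb. Identity over the aligned residues was between 16.7% and 38.3% in the 28 pairs, and the closest pairs were Cst8 with Cst13 at 38.3%, Cst11 with Cst13 at 38.2% and Cst8 with Cst11 at 36.8%. The counts of all 8 members were whole numbers, within 0.001, in every library, although between 10.7% and 11.2% of all genes in a library had counts that were not.

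Totals lay between 15428421 and 16350871 counts per library, and 15787 genes passed the filter on low counts. Tmem232 itself did not separate the labels in the direction of a loss. It had 2217, 2097, 1947 and 1986 counts in the 4 Tmem232-/- replicates by label, against 1784, 1756, 1711 and 1789 in the 4 Tmem232+/+ replicates, and the log2 difference was 0.27 (SE 0.07, adjusted p = 0.034 by edgeR's quasi-likelihood test). These counts cover the whole gene, deleted and remaining exons together, so they do not check the labels, and each direction below is that of the labels. In the fit over all tested genes, 10.3% were called higher in the libraries labelled Tmem232-/- and 1.46% lower at an adjusted p under 0.05, and the median log2 difference of all tested genes was -0.05.

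Of the 8 members, 6 passed the filter on low counts and 3 of these, Cstl1, Cst8 and Cst13, were called higher, beside the 10.3% of all tested genes. edgeR called 0 lower, beside 1.46%, and 0 had a lower level at an unadjusted p under 0.05 or by DESeq2 or limma-voom. Cst9, Cst3 and Cstb were not called. Cst11 and Cst6 had too few counts to be tested. In the same 3 members every library labelled Tmem232-/- lay above every library labelled Tmem232+/+, as it did for 11.8% of the tested genes. Since these differences chose the family, the counts describe it only. Cstl1 passed the filter through the libraries labelled Tmem232-/- alone, where 4 reached the filter's level of 0.622 CPM against 0 of the others, and Cst13 reached it in 4 and 3.

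Cst8 (Entrez ID 13012) lies at chr2:148798839-148805596 on the plus strand. In replicates 1 to 4 labelled Tmem232-/-, its level was 37.3, 28.9, 23.1 and 32.6 CPM, from 560, 460, 365 and 530 counts. In those labelled Tmem232+/+ it was 7.35, 5.51, 12 and 8.66 CPM, from 118, 91, 189 and 141 counts. The genotypes did not overlap, and replicate 3 was at once the lowest of the first group and the highest of the second. The means were 30.5 ± 6.0 and 8.37 ± 2.72 CPM (SD, n = 4 each), a 3.64-fold difference with a log2 difference of 1.86 (SE 0.21). As FPKM, Cst8 also ranked higher among all genes, with 89.5% of genes below it in the libraries labelled Tmem232-/- and 71.0% in the others.

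Cst13 (Entrez ID 69294), at chr2:148820060-148830410 on the plus strand, encodes cystatin T, a secreted cystatin of male germ cells. Its counts were 144, 143, 112 and 167 in the libraries labelled Tmem232-/-, or 9.58, 8.98, 7.08 and 10.3 CPM. In the libraries labelled Tmem232+/+ it had 12, 7, 19 and 13 counts, or 0.748, 0.424, 1.20 and 0.798 CPM. The lowest library of the first group was thus well above the highest of the second, and replicate 3 again stood lowest in one and highest in the other. The mean was 8.98 ± 1.37 against 0.793 ± 0.320 CPM, 11.3-fold higher, with a log2 difference of 3.49 (SE 0.24). On the authors' FPKM as log2(value + 1) the difference of Cst13 was 2.74. Pooled over libraries, 566 counts stood against 51, a ratio of 11.4 with a 95% interval of 8.54 to 15.5 that covers counting error only.

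Cstl1 (Entrez ID 228756), cystatin-like 1, lies at chr2:148750361-148755378 on the plus strand and is the first gene of the cluster. It had 51, 43, 20 and 65 counts in the libraries labelled Tmem232-/-, or 3.39, 2.70, 1.26 and 4.0 CPM. In the libraries labelled Tmem232+/+ it had 2, 1, 1 and 1 counts. At this depth it was near the limit of detection in the second group, and it was the most variable of the 3 in the first, with a coefficient of variation of 41.4% against 19.7% for Cst8 and 15.2% for Cst13. The pooled counts were 179 and 5, a ratio of 36.7 (95% interval 15.4 to 114, counting error only). The fitted log2 difference was 5.06 (SE 0.51), a value that depends on how the fit treats counts near 0. On the authors' FPKM as log2(value + 1) it was 2.60, where the added 1 outweighs the level of the second group, and with a filter of at least 10 counts in every library neither Cstl1 nor Cst13 was tested.

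**Figure D1:**
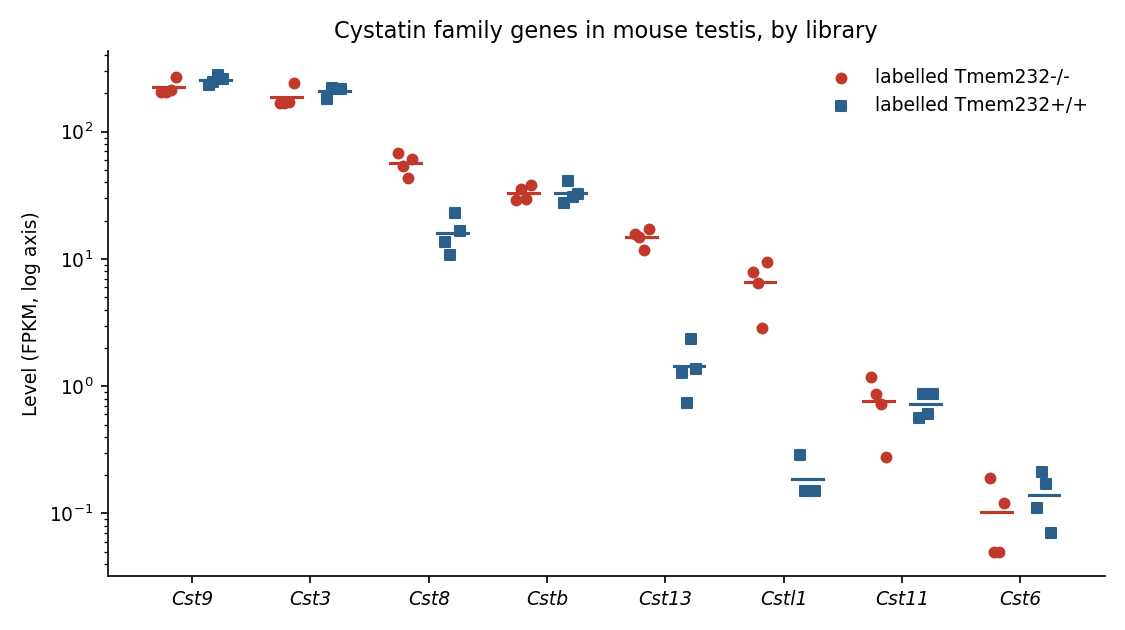
Level of each member in each library, in FPKM on a log axis, with circles for the 4 libraries labelled Tmem232-/-, squares for the 4 labelled Tmem232+/+ and a line at each mean. Cst8, Cst13 and Cstl1 show no overlap between genotypes, and the points of the other 5 genes overlap.

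The 2 members most abundant in these testes were not called. Cst9 (Entrez ID 13013, chr2:148835147-148838737, plus strand) encodes testatin, which was described in Sertoli cells and their fetal precursors. The libraries labelled Tmem232-/- held 109, 105, 110 and 139 CPM, against 122, 123, 142 and 131 CPM in the others, a log2 difference of -0.16 (SE 0.10). Cst3 (Entrez ID 13010, chr2:148871722-148875512, minus strand) encodes cystatin C, the widely made secreted inhibitor of cathepsins. It was at 109, 106, 109 and 150 CPM against 115, 134, 131 and 131 CPM, a log2 difference of -0.11 (SE 0.11). For both genes the groups overlapped, because replicate 4 labelled Tmem232-/- stood above its group while the other 3 libraries lay below all those labelled Tmem232+/+.

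Cstb (Entrez ID 13014, chr10:78425670-78427622, plus strand) encodes cystatin B, the intracellular inhibitor of cathepsins that is found in most tissues. It was at 12.8, 15.1, 12.9 and 16.4 CPM against 12.1, 16.8, 13 and 13.7 CPM, a log2 difference of 0.04 (SE 0.13), and the groups overlapped throughout. Cst11 (Entrez ID 78240, chr2:148768618-148771497, minus strand), a relative of CRES known from the epididymis, had 8, 6, 5 and 2 counts against 4, 6, 4 and 6. The pooled ratio of 21 to 20 counts was 1.08, with a 95% interval of 0.555 to 2.09 that covers counting error only and not the spread between mice. Cst6 (Entrez ID 73720, chr19:5344705-5349574, minus strand) encodes cystatin E/M, a secreted inhibitor of legumain and cathepsins best known from skin. It had 11, 3, 3 and 7 counts against 7, 13, 10 and 4, a pooled ratio of 0.724 (95% interval 0.411 to 1.26, counting error only), so no difference was detectable at this depth.

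Compared per length, Cst9 and Cst3 headed the 8 members in both genotypes. Cst12, a cystatin gene of the same cluster that is not a member, is left out of this order. Its mean was 209 FPKM in the libraries labelled Tmem232+/+, near that of Cst3, and 161 FPKM in those labelled Tmem232-/-. In the libraries labelled Tmem232+/+ the order by mean FPKM was Cst9 (255 ± 20.9), Cst3 (208 ± 18.8), Cstb (32.9 ± 5.67), Cst8 (15.9 ± 5.22), Cst13 (1.44 ± 0.681), Cst11 (0.725 ± 0.168), Cstl1 (0.185 ± 0.0700) and Cst6 (0.140 ± 0.0622). Cst13 overlapped with Cst11 there, and Cstl1 with Cst6. In the libraries labelled Tmem232-/- Cst8, at 56.5 ± 10.7 FPKM, stood above Cstb, at 33.0 ± 4.25, and Cst13 (15 ± 2.3) and Cstl1 (6.64 ± 2.80) both stood above Cst11 (0.765 ± 0.378) in every library. There Cst9 (223 ± 31.8) and Cst3 (188 ± 35.2) overlapped, and the other neighbours in the order did not.

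The make-up of the family differed, while its total overlapped between genotypes. The FPKM of the 8 genes summed to 474 to 637 in the libraries labelled Tmem232-/-, against 455 to 553 in those labelled Tmem232+/+. Cst8 made up 9.06% to 13.7% of this sum in the first group and 2.05% to 4.13% in the second. The ratio of Cst8 to Cst13 was 3.52 to 4.35 in the first and 9.65 to 14.5 in the second, since Cst13 differed by the larger factor. The ratio of Cst9 to Cst3 stayed at 1.13 to 1.24 and 1.12 to 1.31.

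The 6 members on chromosome 2 lie within 125.2 kb, at chr2:148750361-148875512, in the order Cstl1, Cst11, 8030411F24Rik, Cst12, Cst8, Cst13, Cst9, 9230104L09Rik and Cst3, and no gene of the cluster overlaps another in the deposited coordinates. The 3 genes with higher levels are not adjacent as a block, since Cst11, 8030411F24Rik and Cst12 lie between Cstl1 and Cst8. 8030411F24Rik, Cst12 and 9230104L09Rik are counted here as cystatin genes that are not members, and edgeR called 0 of these 3. 8030411F24Rik was at 10.7 ± 2.88 against 15.1 ± 1.53 CPM, a log2 difference of -0.49 (SE 0.16, adjusted p = 0.083). Cst12, a cystatin of testis and epididymis, was at 60.8 ± 11.7 against 76.8 ± 6.68 CPM, a log2 difference of -0.34 (SE 0.12, adjusted p = 0.11). 9230104L09Rik was at 7.45 ± 2.12 against 5.89 ± 2.37 CPM, a log2 difference of 0.34 (SE 0.30, adjusted p = 0.51). Without replicate 4 labelled Tmem232-/-, 8030411F24Rik and Cst12 were called lower, at log2 differences of -0.69 (SE 0.11) and -0.46 (SE 0.10).

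Outside the cluster, the 10 nearest listed genes on each side were compared in the same fit. Of these 20 genes, 14 were tested and edgeR called 0, beside the 10.3% of all tested genes called higher and 1.46% called lower. Counted together with the 3 cystatin genes inside the cluster, 6 of 17 tested genes had an unadjusted p under 0.05, with 1 higher (Zfp442) and 5 lower (8030411F24Rik, Cst12, Gzf1, Nxt1 and Thbd), where 14.6% of all tested genes were higher and 10.5% lower at the same threshold. limma-voom called 0 of them at an adjusted p under 0.05, and DESeq2 called Pax1 higher and Thbd lower. In edgeR without replicate 3 labelled Tmem232+/+, Thbd was called lower (log2 difference -0.74) and Zfp442 higher (0.65), and without replicate 2 labelled Tmem232-/- Zfp442 was called higher (0.61). Pax1, a developmental transcription factor gene, had 17, 8, 6 and 18 counts against 1, 0, 0 and 5 and did not pass the low-count filter of the main edgeR fit. In edgeR without this filter, Pax1 (log2 difference 3.01, SE 0.74) and Zfp442 (0.56, SE 0.16) were called higher.

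**Figure D2:**
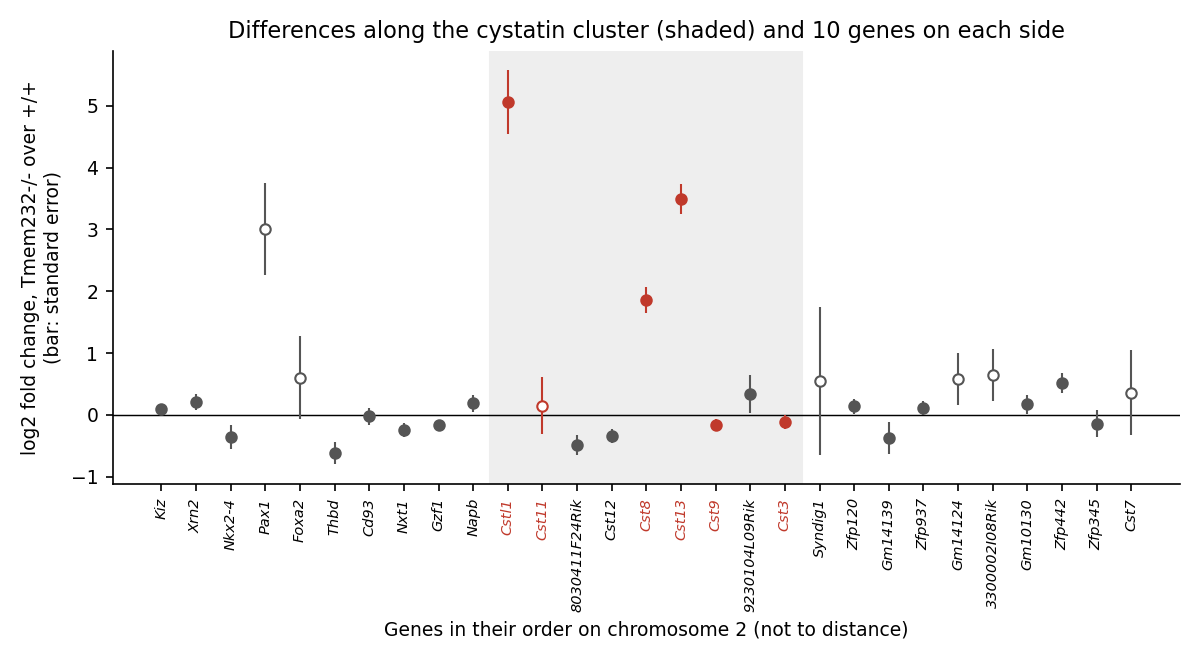
Log2 difference of the libraries labelled Tmem232-/- over those labelled Tmem232+/+ (vertical axis, bars are standard errors) for the 9 genes of the cluster (shaded) and 10 genes on each side, in their order along chromosome 2. Red marks members and open symbols mark genes with too few counts to be tested, whose values come from the fit without the filter. Cstl1, Cst8 and Cst13 stand at 5.06, 1.86 and 3.49, and the 5 other tested genes of the cluster between -0.49 and 0.34.

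The 3 members with higher levels were also compared by promoter. RefSeq (GRCm38.p6) gave the 250 bases before and 50 after the start site for 5 members, Cstl1, Cst8, Cst13, Cst9 and Cst3, and for Cst12. Runs of 7 to 12 letters present in all 3 promoters of the higher genes were searched on both strands after the levels were known. Absence from the other 3 promoters was no condition of the search, but the run shown was in none of them. It was picked from the runs found because it lies on the coding strand in each of the 3. The run TCACAAAG, on the coding strand in each, began 64 bases before the start site in Cstl1, 70 in Cst8 and 47 in Cst13. For Cst13 the RefSeq start site used lies inside the gene as deposited, which begins at chr2:148820060. The run is nearer to that beginning, so its distance in Cst13 depends on the start site taken. The run occurs, on either strand, in 616 of 32851 promoters of the same length (1.88%), these 3 included. The promoters are shown 5′ to 3′ on the plus strand, which is the coding strand of each, with this run in capitals, at chr2:148750111-148750410 for Cstl1, chr2:148798589-148798888 for Cst8 and chr2:148819849-148820148 for Cst13.
Cstl1: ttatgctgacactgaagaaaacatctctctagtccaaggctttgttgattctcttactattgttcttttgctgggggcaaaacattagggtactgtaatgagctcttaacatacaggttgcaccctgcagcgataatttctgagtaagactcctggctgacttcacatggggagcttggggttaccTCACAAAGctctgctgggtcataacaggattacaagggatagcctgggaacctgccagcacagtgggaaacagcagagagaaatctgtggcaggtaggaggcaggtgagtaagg
Cst8: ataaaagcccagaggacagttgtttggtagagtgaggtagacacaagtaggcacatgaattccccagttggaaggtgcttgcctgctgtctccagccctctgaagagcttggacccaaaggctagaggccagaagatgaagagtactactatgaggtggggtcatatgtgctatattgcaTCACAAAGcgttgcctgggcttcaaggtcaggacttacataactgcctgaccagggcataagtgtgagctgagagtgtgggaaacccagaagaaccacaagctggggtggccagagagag
Cst13: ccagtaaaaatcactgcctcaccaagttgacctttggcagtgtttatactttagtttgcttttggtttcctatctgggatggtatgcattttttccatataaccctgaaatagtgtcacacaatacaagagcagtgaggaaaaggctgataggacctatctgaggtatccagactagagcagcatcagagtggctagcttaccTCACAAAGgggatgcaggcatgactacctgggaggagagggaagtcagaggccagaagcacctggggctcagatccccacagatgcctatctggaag

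Cstl1 and Cst13 shared a longer stretch around this run, TTACCTCACAAAG, of 13 letters, picked as the longest that these promoters share on the same strand. With these source promoters counted, 4 of the 32851 promoters held it (0.0122%). Since the stretch was picked for being shared, this percent is no background for the sharing. A part of this stretch, found on the opposite strand as GTGAGGTA, also occurred in the Cst8 promoter, 219 bases before the start site, and in 0.743% of all promoters, the source promoters included. Other letters were also searched on both strands. TGACGTCA, the full cyclic AMP response element, and its part TGACG were in none of the 6 promoters, against 1.80% and 20.8% of all promoters. TATAAA occurred once, in Cst13 at position -208 (13.6% of all promoters), and AGAACA, an androgen response half-site, once in Cstl1 at -190 and at -218 and -100 in Cst3 (19.0%). These are matches of letters within short windows and no binding was measured.

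Spermatids, the haploid germ cells that become sperm, are the cells in which Cst8 is known to be made, and lists of their marker genes moved in the same direction. Of 11 genes of elongating spermatids, 11 were called higher and 0 lower, beside 10.3% and 1.46% of all tested genes, with a median log2 difference of 1.62. Of 10 genes of round spermatids, 8 were called higher and 0 lower, with a median of 1.08. All marker lists were drawn up with earlier results of these data known, so these counts are a description and no independent test. The summed level of the first list was 1640 to 2580 CPM in the libraries labelled Tmem232-/- and 447 to 828 CPM in the others, and that of the second was 1340 to 1500 and 912 to 1120 CPM. No gene of either list was at 0. Among the most abundant of the first list, Smcp, which encodes a protein of the sperm mitochondrial sheath, was at 331 ± 63.5 against 128 ± 49.1 CPM (log2 difference 1.38, SE 0.23, edgeR adjusted p = 0.0016), and Akap4, of the fibrous sheath, at 312 ± 40.1 against 98.4 ± 14.3 CPM (1.67, SE 0.12, adjusted p = 2.06e-05). The protamine and transition protein genes, whose transcripts are known to be abundant in spermatids of adult testis, were low for such tissue in the libraries labelled Tmem232+/+, where Prm1 was between 1.63 and 7.54 CPM and Tnp2 between 6.72 and 31.3 CPM. In the libraries labelled Tmem232-/- Prm1 was between 44.3 and 132 CPM (log2 difference 4.4) and Tnp2 between 120 and 341 CPM (3.86). These levels were also far below that of Ldhc, a gene of the spermatocyte list read below, at 2660 ± 30.8 CPM there. Neither group is thus taken as the usual level of adult testis, and gene totals do not check the labels.

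The order of the libraries by elongating spermatid markers was also their order by Cst8. The summed marker level in replicates 1 to 4 was 2580, 2120, 1640 and 2410 CPM in the libraries labelled Tmem232-/- and 565, 447, 828 and 637 CPM in the others. Expressed as a percent of this sum, Cst8 was 1.44, 1.36, 1.41 and 1.35 in the first group and 1.30, 1.23, 1.45 and 1.36 in the second. These values overlapped between genotypes, with means of 1.39% and 1.33%. Cst13 was 0.371% to 0.432% of the sum in the first group and 0.0949% to 0.145% in the second, 3.32 times higher by the means and without overlap. The sum rests mostly on markers with smaller differences, and 4 genes of the list differed by more than the 11.3-fold of Cst13, namely Prm1 (21.1-fold), Prm2 (21.7-fold), Tnp1 (11.6-fold) and Tnp2 (14.5-fold). Cstl1 was 0.0772% to 0.166% and 0.00765% to 0.0220%, again without overlap. Relative to the round spermatid markers all 3 genes remained apart, Cst8 at 1.73% to 2.48% against 0.604% to 1.07%. In whole testis, fewer cells of a type and less RNA per cell cannot be told apart, and the part of the spermatid markers in the differences of Cst8, Cst13 and Cstl1 was not tested.

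**Figure D3:**
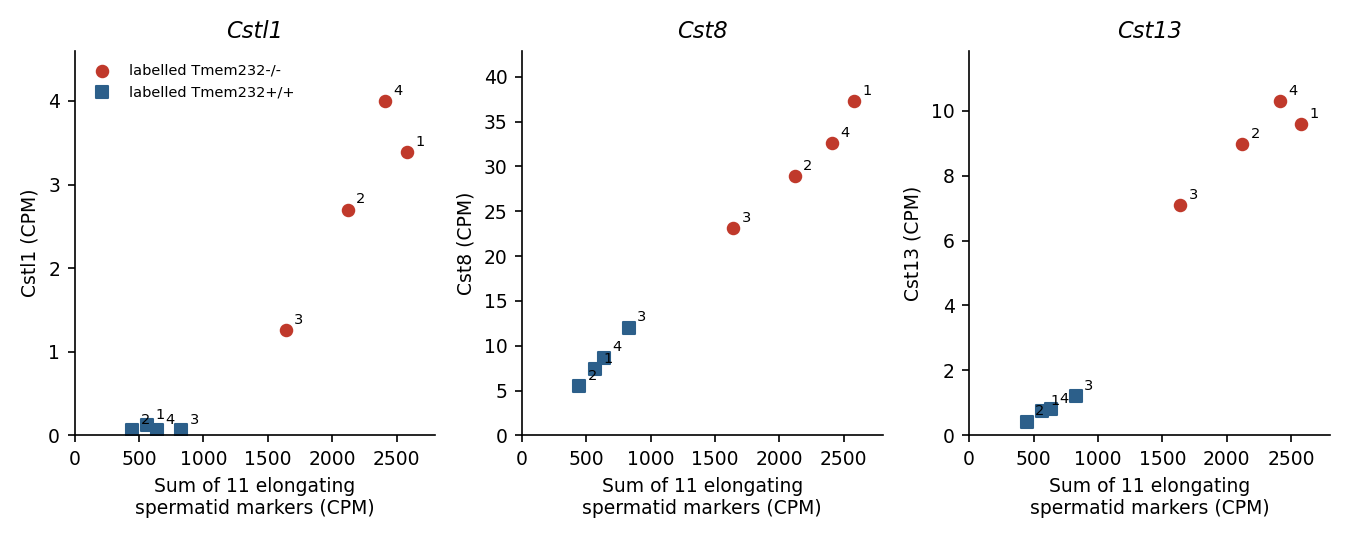
Level of Cstl1, Cst8 and Cst13 (CPM, vertical axes) against the summed level of 11 elongating spermatid marker genes (CPM, horizontal axis) in each of the 8 libraries, numbered by replicate. Cst8 keeps to between 1.23% and 1.45% of the marker sum in all 8 libraries, while Cst13 and Cstl1 stand at a higher percent in the libraries labelled Tmem232-/-.

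Markers of the other cells of the testis were read against the same 10.3% higher and 1.46% lower, with no test between lists. Of 8 genes listed for spermatocytes 1 was called higher (Spag6) and 0 lower. The study also found the Spag6 product in sperm, so this gene does not mark spermatocytes alone. Of 7 spermatogonial genes 0 were called higher and 3 lower (Sall4, Stra8 and Uchl1), with summed levels of 193 to 210 against 233 to 260 CPM. Sertoli cells, which nurse the germ cells and in which Cst9 is known, had 0 of 11 genes called, and their sum was 1850 to 2390 against 2180 to 2300 CPM. Replicate 4 labelled Tmem232-/-, the highest of its group for Cst9 and Cst3, was also its highest for this sum, at 2390 CPM against 1850 to 1980 CPM in the other 3. edgeR called 0 of 6 Leydig cell genes and 0 of 9 macrophage genes, and the Leydig sum was 391 to 548 against 248 to 424 CPM. At an unadjusted p under 0.05 in edgeR, 14.6% of all tested genes were higher and 10.5% lower. At this threshold edgeR counted 1 gene of the spermatocyte list higher (Spag6) and 1 lower (Sycp3), and 5 spermatogonial genes lower and 1 higher. It also counted 1 Sertoli gene lower (Sox9), 4 Leydig genes higher (Cyp11a1, Cyp17a1, Hsd3b1 and Star) and 0 macrophage genes. limma-voom called 0 genes of the Sertoli, Leydig and macrophage lists at an adjusted p under 0.05, and DESeq2 called 1, Star, higher.

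Cst8, Cst11 and Cst12 are also known from the epididymis, which adjoins the testis. Of 16 epididymal genes listed, 13 were in the table and 2 were tested. edgeR called 0 of these, beside 10.3% of all tested genes called higher and 1.46% called lower. None of the 2 had an unadjusted p under 0.05, beside 14.6% of all tested genes higher and 10.5% lower. With 2 genes tested, counts of 0 are near these shares. limma-voom and DESeq2 also called 0, while each of the 13 had at least 1 count in some library. Their sum was 6.39 to 14.4 CPM in the libraries labelled Tmem232-/- and 6.66 to 40.3 CPM in the others, with the highest values in replicates 1 and 3 labelled Tmem232+/+. Crisp1, an abundant secreted protein gene of the epididymis, had 83, 1, 0 and 14 counts against 434, 0, 157 and 0. The counts of Cst8 in the latter group, 118, 91, 189 and 141, stand beside these. The part of epididymal RNA in the levels of Cst8, Cst11 and Cst12 was not tested.

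The genes most like each member across the 8 libraries, by Pearson's r of log2(CPM + 1) among genes with a mean of at least 1 CPM, are given as a description, since all genes share these libraries and the genotype. Cst8 was most like Oaz3 and Spert (r = 0.999 each) and Gapdhs (0.998). Cst13 was most like Fam71a and 4921507P07Rik (0.998 each) and Plbd1 (0.997). Cstl1 was most like Gm8777 (0.998), Myo18b and 1700080E11Rik (0.994 each). All 9 of these genes were themselves called higher. Oaz3, an antizyme gene, and Gapdhs, the glycolytic dehydrogenase gene of sperm, are in the list of elongating spermatid markers.

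After each genotype's mean was subtracted, so that only the variation between mice of 1 genotype remained, Cst8 and Cst13 varied together (r = 0.95 over 8 libraries), as did Cst9 and Cst3 (r = 0.89), whereas Cstl1 had r = 0.62 with Cst13 and 0.50 with Cst8. Cst9 and Cst3 both stood far above their group in replicate 4 labelled Tmem232-/-, at 139 and 150 CPM, and their r without this library was not computed. After the same subtraction Cst8 was most like Cfap97d1 (0.998), 1700020L24Rik (0.997) and Odf3 (0.995), and Cst13 was most like the transition protein gene Tnp2 (0.993), Fam71a (0.992) and Syce3 (0.989). Cstl1 was most like Odf3b (0.986), Gm8777 (0.984) and Ccdc51 (0.981). Cst3 was most like Zfp839 (0.992), Nr5a1 (0.989), which encodes a transcription factor of Sertoli and Leydig cells, and Slc27a3 (0.983). Cst9 was most like Xlr3b (0.987), Rplp2 (0.984) and Dbp (0.983), and Cstb like Ms4a7 (0.990), Ror1 (0.986) and Pepd (0.973).

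The remaining cystatins were read against the 10.3% of all tested genes called higher and 1.46% called lower. Of 11 further genes of the superfamily in the table, which include the 3 in the cluster, 5 were tested and edgeR, DESeq2 and limma-voom each called 0 at an adjusted p under 0.05, though edgeR called 2 lower without replicate 4 labelled Tmem232-/-, as given above. At an unadjusted p under 0.05 in edgeR, 2 of the 5, 8030411F24Rik and Cst12, were lower, beside 10.5% of all tested genes. The liver fetuin genes Ahsg and Fetub, at log2 differences of 0.05 and 0.07, were among the tested, and the stefin A genes and kininogen genes had too few counts.

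Cysteine cathepsins and legumain are the proteases that cystatins inhibit, and their list also held Tinagl1, which is related to cathepsins and has no protease activity. Of the 12 genes in the table, 11 were tested, and edgeR, DESeq2 and limma-voom each called 0 at an adjusted p under 0.05, with 1 gene (Tinagl1, lower) at an unadjusted p under 0.05 in edgeR. Over all tested genes edgeR called 10.3% higher and 1.46% lower, so in a list of this size a count of 0 is near the background. The log2 differences lay between -0.42 and 0.28 with a median of -0.08, and between -0.22 and 0.28 with a median of -0.04 over the 10 tested genes other than Tinagl1. Ctsl, a cathepsin gene active in Sertoli cells, was at 355 ± 38.7 against 374 ± 6.18 CPM (log2 difference -0.08). Ctsb was at 92.7 ± 13.7 against 90.0 ± 11.7 CPM (0.04), and Lgmn, which encodes legumain, at 59.1 ± 5.89 against 66.2 ± 6.24 CPM (-0.16). The groups overlapped for all 3. Of 9 placental cathepsin genes listed, 3 were in the table and none had enough counts to be tested.

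**Figure D4:**
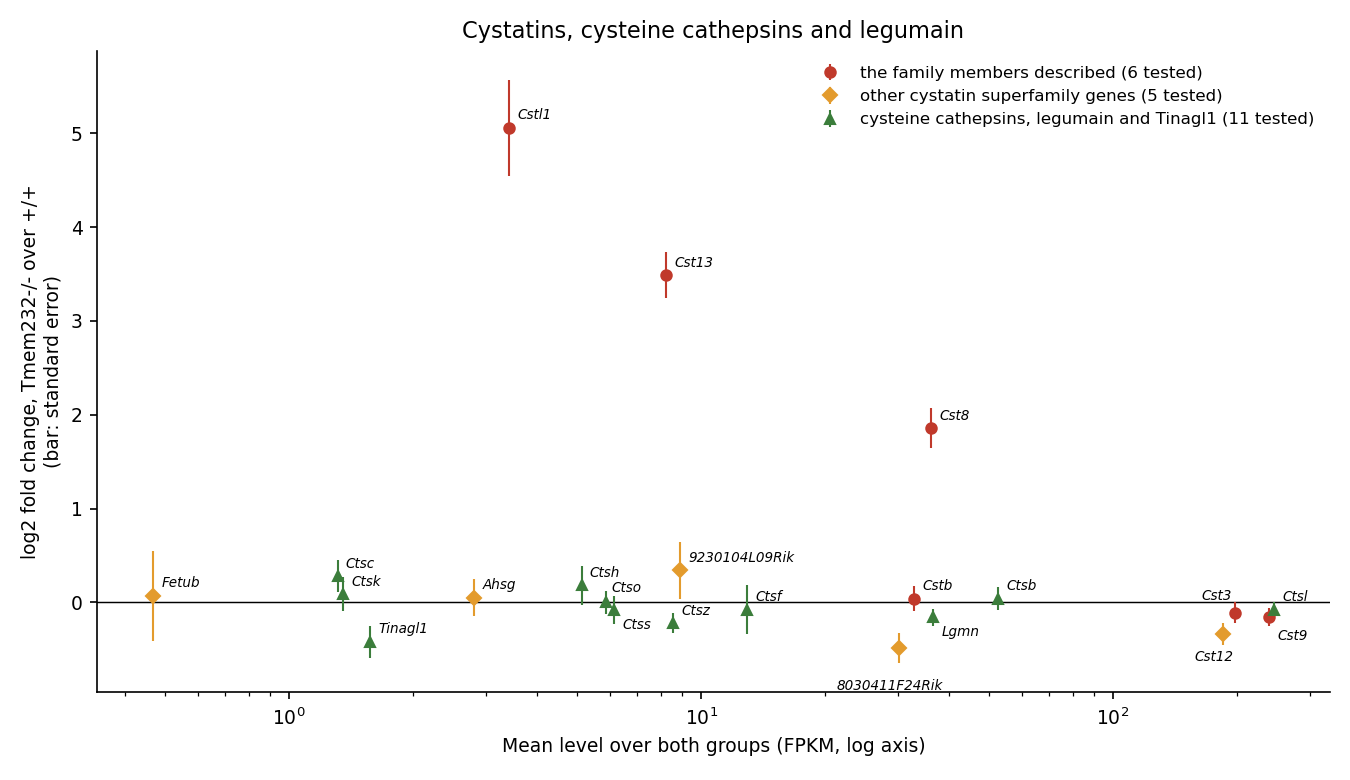
Log2 difference of the libraries labelled Tmem232-/- over those labelled Tmem232+/+ (bars are standard errors) against the mean level in FPKM (log axis) for the tested members, other cystatin superfamily genes and cysteine cathepsins with legumain and Tinagl1. Cstl1, Cst13 and Cst8 stand at 5.06, 3.49 and 1.86, and the cathepsins and legumain between -0.22 and 0.28, with Tinagl1 at -0.42.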

How the data were processed

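The members and all gene lists were chosen with earlier results of these data known. Per the labels and the study's methods, the authors mapped reads to GRCm38.p6 with HISAT and Bowtie2 and counted them with StringTie and featureCounts. The deposited estimated counts are not normalized, and they were rounded to whole numbers. The deposited FPKM values are per kilobase and per library total (within 0.78% in 851 genes with 1 transcript). Columns with the authors' own comparisons hold fold changes, p-values and q-values and were not used.

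Counts were analysed in R 4.3.3 with edgeR 4.0.16 (low-count filter with default settings, TMM, quasi-likelihood test, Benjamini-Hochberg adjustment over 15787 tested genes), with all 8 libraries and no covariates. Each SE of an edgeR log2 difference is that difference divided by the square root of the quasi-likelihood test's F statistic. The SE of a member thus comes from the contrast that chose the family and is not independent of that test. The alternatives used limma 3.58.1 and DESeq2 1.42.0. Intervals of pooled count ratios are exact, at 95%, and cover counting error only. Levels, correlations and sequences were computed in Python 3.11.15. The genes named were the members, called genes of the lists or, if none, the 3 with the highest FPKM, the 2 to 4 most abundant markers of a list, and the 3 most like each member. Genes outside this rule, such as Pax1, Prm1 and Crisp1, were named after their values were seen. The mice are separate animals, and p-values cover the spread between them.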

Additional observations from a re-analysis of the deposited data

Results flagged for a closer look

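In 4 of the 16 groups of 4 libraries formed by the 8 members and both labels, 1 library stood far from the other 3 by Dixon's ratio of its gap to the range, for which chance alone gives about 1 group in 20, or 0.8 of 16. Cst3 in replicate 4 labelled Tmem232-/- was at 150 CPM, with a ratio of 0.932, above the limit at the 95% level. Cst9 in the same library was at 139 CPM, with a ratio of 0.847, so that these members, Cst3 and Cst9, stood high in the same mouse. Cst3 in replicate 1 labelled Tmem232+/+ was at 115 CPM, below the other 3, with a ratio of 0.865. Cstl1 in replicate 1 labelled Tmem232+/+ was at 0.125 CPM, with a ratio of 0.957, which rests on 2 counts against 1 in each of the other 3.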

How the results depend on the processing

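The calls of members repeat the values that chose the family and are no evidence of stability. Cstl1, Cst8 and Cst13 were called higher, and 0 members lower, under DESeq2, limma-voom, other scalings, no filter, the fold-change rule, FPKM with limma and each library left out. With at least 10 counts in every library the count of members called higher was 1, since Cstl1 and Cst13 were not tested there. Over all alternatives that gave a value, the log2 difference was 2.60 to 5.39 for Cstl1, 1.71 to 2.12 for Cst8, 2.74 to 3.79 for Cst13, -0.25 to -0.08 for Cst9 and -0.24 to -0.06 for Cst3. With single libraries left out Cstb ranged from -0.016, without replicate 4 labelled Tmem232-/-, to 0.15, and the cause was not tested. With single libraries left out, 0 to 2 of the other cystatin genes were called lower, the 2 (8030411F24Rik and Cst12) without replicate 4 labelled Tmem232-/-. Of the 20 flanking genes and the 3 other cystatins in the cluster together, 0 to 1 were then called higher and 0 to 2 lower, the 2 being those same cystatins. DESeq2 called 1 of them higher and 1 lower, the fit without a filter called 2 higher, in part because it tests more genes, and scaling by library size alone called 1 lower. The median of all tested genes lay between -0.09 and 0.00. Replicate numbers shared between genotypes did not pair the samples (correlations of -0.06, 0.07, -0.33 and -0.11), and with the replicate block the log2 differences were 5.05, 1.88 and 3.50 for Cstl1, Cst8 and Cst13, with 3 members called higher. Depth limits Cst11, Cst6 and, in the libraries labelled Tmem232+/+, Cstl1.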
